A study of Mus musculus with 6 samples.

Results

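The genes of the tumour necrosis factor (TNF) superfamily that carry its systematic names were followed in the mouse frontal cortex after chronic deacetylase inhibition. They are the 30 genes whose symbol is Tnf or begins with Tnfsf or Tnfrsf, of 19938 genes measured, and comprise 10 ligand genes (Tnf and Tnfsf) and 20 receptor genes (Tnfrsf). Each is represented by 1 probe set that pairs with its symbol alone. A further probe set pairs with 3 symbols at once, among them Tnfsf12 and Tnfsf13, and is not described here. Wild-type 129S6/SvEv mice aged 8 to 12 weeks received suberoylanilide hydroxamic acid (SAHA, vorinostat) at 20 mg per kg for 21 days, or vehicle, which the sample titles call saline, and tissue was collected 1 day after the final injection. SAHA blocks zinc-dependent histone deacetylases. Each group held 3 samples, and each sample was hybridised to 1 whole-transcript array, so the number of arrays limits the precision. Nothing in the labels says that the samples came from separate mice, so the p-values speak only of how far these samples differ from each other, and part of that may be technical. No allele or further agent is named in either group.

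Ligands of this family are trimers, most of them made as transmembrane proteins, and some are shed from the cell surface by metalloproteases. They bind receptors with cysteine-rich extracellular domains. These receptors recruit TRAF adaptors, which activate NF-kappaB and MAP kinases, or, where they carry a death domain, adaptors such as TRADD and FADD that can start apoptosis or necroptosis. In the brain TNF is released mainly by microglia and astrocytes and tunes synaptic strength as well as inflammation. Many other members act in T and B lymphocytes, which are sparse in healthy cortex.

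All values are log2 signals as deposited, and a difference is SAHA minus saline on that scale, with the standard error (SE) of the limma fit over all genes. The signal of a probe set depends on its probes, so amounts of transcript are compared between arrays and not between genes. Where genes are grouped by signal, as for deciles and the range of silent genes, the grouping is approximate for the same reason. The cortical check genes, which include Slc17a7, Camk2a, Neurod6 and Tbr1, had mean signals of 7.76 to 12.4 for the 7 measured. Defining markers of the labelled tissue were thus present. Saline replicate 1 stood apart with a signal of 10.9 for Xist, against 4.63 to 4.88 in the 5 other arrays, beside Y-linked transcripts at the level of the other arrays. In SAHA replicate 3 the Y-linked transcripts Eif2s3y, Kdm5d and Uty were lower than in any other array. Results are therefore given with and without these arrays. Over all genes the median signal was 6.92 to 6.93 in saline and 6.94 to 6.98 in SAHA.

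Most members lay where other genes of the same signal lay, and the member with the clearest difference was Tnfsf11, the ligand RANKL, which was higher in every SAHA array. No member passed the adjusted threshold of 0.05 (limma, Benjamini-Hochberg over all genes), where 0% of all genes passed. An unadjusted p under 0.05 was reached by 3 of the 30 members (10%), Tnfsf11, Tnfrsf13b and Tnfrsf12a, against 17.4% of all genes. All 3 were higher in SAHA, where 11.9% of all genes were higher and 5.56% lower under that limit. In the decile of mean signal of each gene the share higher was 10.7% for Tnfsf11, 23.2% for Tnfrsf13b and 17.1% for Tnfrsf12a. The groups did not overlap for 7 members (23.3%), again all higher, against 23.9% of all genes, made up of 13.6% higher and 10.4% lower. Counted in both directions, these shares lie near or below the background. The 23.3% without overlap and higher exceed the 13.6% of all genes, but this share was not computed among genes of similar signal. The second to the fifth decile of mean signal hold most members. There 17.1% to 23.2% of genes were higher at an unadjusted p under 0.05 in limma. After quantile normalization 3 of the 30 members were without overlap and higher, and after cyclic loess 2. The direction is set against genes of similar signal in the next paragraph. The count under 0.05 reached 5 when SAHA replicate 2 or SAHA replicate 3 was left out, where 19.4% and 14.1% of all genes reached that limit. The count of members without overlap reached 12 when saline replicate 2 was left out, and 11 when SAHA replicate 1 or SAHA replicate 2 was, where the groups did not overlap for 34.7%, 31.9% and 41.2% of all genes in the same order.

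Differences above 0 were found for 25 of the 30 members (83.3%), against 52.9% of all genes. The members lay mostly at modest signals, where most genes were higher in SAHA. When all genes were divided into deciles by mean signal, 10 members fell in the fourth decile, in which 74% of genes were higher and the median difference was 0.098. The second, the third and the fifth decile held 4, 4 and 5 members, with medians of 0.11, 0.1 and 0.062. Against the median of its own decile, 13 of the 30 members were above and the median member lay 0.0080 below. A signal at or below 6.34, the 95th percentile of 1194 olfactory and vomeronasal receptor genes that are silent in cortex, was found for 14 members. For these the array gives little assurance that the transcript was measured at all. The limit comes from other probe sets and is approximate, and Tnfrsf1b, at 6.343, lay just above it.

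**Figure D1:**
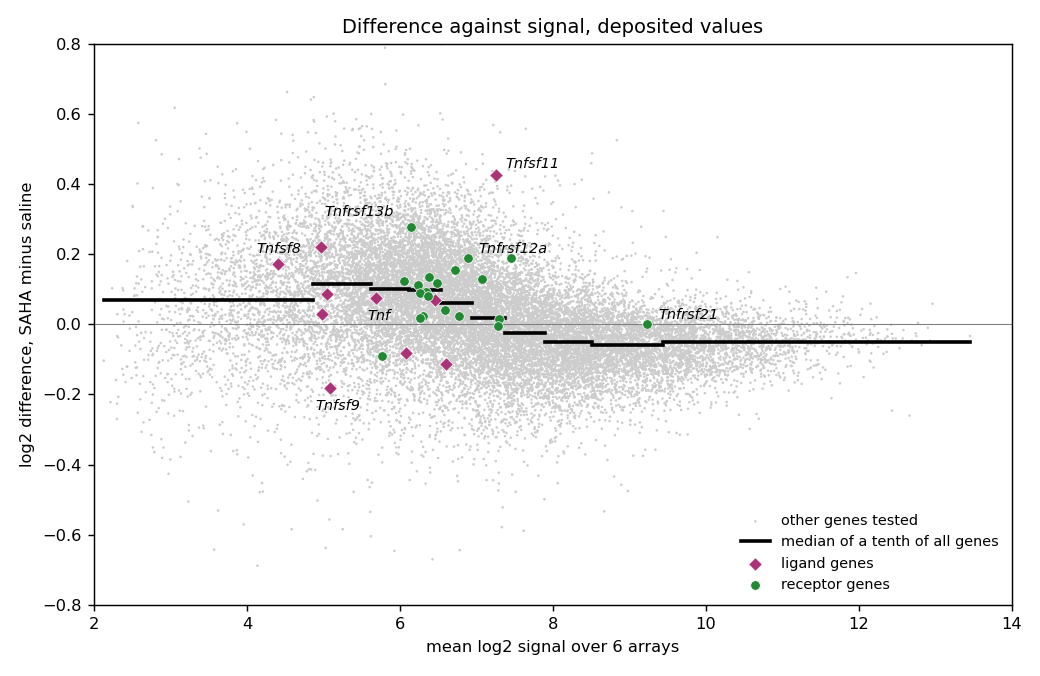
Log2 difference (SAHA minus saline, vertical axis) against mean log2 signal over 6 arrays (horizontal axis) for all genes tested, with ligand genes as diamonds, receptor genes as circles and the median of each decile of all genes as a black line; 1 gene lies beyond the vertical axis. Most members follow the black line, and Tnfsf11, at 0.425, lies above it.

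Ligands and receptors were set side by side. The 10 ligand genes had a median difference of 0.073, with 7 higher, and the 20 receptor genes one of 0.090, with 18 higher, where all genes had 0.011. Relative to the saline mean of each gene, the median ligand of the 3 saline arrays, in replicate order, was -0.0060, -0.057 and 0.025, and of the SAHA arrays 0.17, 0.019 and 0.081. SAHA replicate 2 therefore lay within the saline range for the ligands. The median receptor lay at -0.055, 0.023 and 0.051 in saline and at 0.096, 0.083 and 0.058 in SAHA. These did not overlap, but SAHA replicate 3 was close to saline replicate 3. The median over all genes did not overlap either, at -4.9e-05, 0.00174 and -0.00293 in saline and 0.00845, 0.00686 and 0.015 in SAHA. The lack of overlap is thus not particular to the receptors. No test was made of the difference between the classes. Both medians moved with the scaling of the arrays. After quantile normalization the ligand median was -0.026, with 3 of 10 higher, and the receptor median 0.019, with 12 of 20 higher, and over the 30 members 15 were higher, against 50.6% of all genes.

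**Figure D2:**
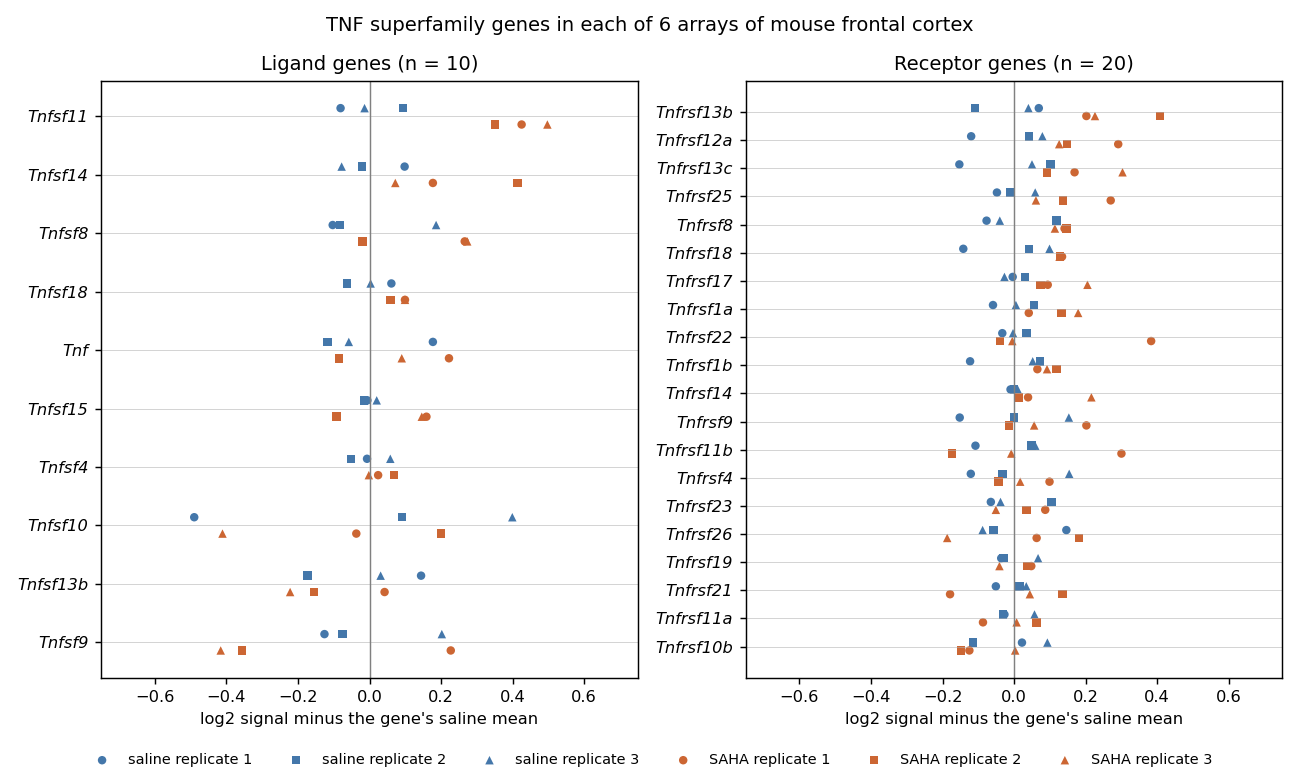
Signal of each of the 30 genes in each of 6 arrays, as the log2 difference from that gene's saline mean (horizontal axis), with ligand genes on the left and receptor genes on the right, saline in blue and SAHA in orange, and a marker shape for each replicate number. For Tnfsf11 all SAHA points lie right of all saline points with a clear gap, while Tnfsf10 and Tnfsf9 spread widely within both groups.

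Tnfsf11 encodes RANKL, the cytokine that drives osteoclast formation and, in the brain, takes part in the control of body temperature. Its signal in the saline arrays, in replicate order as in all sentences that follow, was 6.96, 7.14 and 7.03, and the SAHA arrays read 7.47, 7.40 and 7.54. Each SAHA array lay above each saline array, and the gap between the groups was wider than the range within either. The saline mean was 7.04 ± 0.088 and the SAHA mean 7.47 ± 0.073 (SD, n = 3), which is a difference of 0.425 (SE 0.071, 95% interval 0.26 to 0.59) or 1.34-fold. In limma this gave an unadjusted p of 0.000351, rank 52 of 19938 genes, and an adjusted p of 0.116, which 84 genes shared as the lowest value of the comparison. It lay 0.41 above the median of its decile. Unlike most members, it kept its size after quantile normalization, at 0.42 (SE 0.065), and after cyclic loess, at 0.41 (SE 0.066). With any single array left out the difference was between 0.38 and 0.47. With both arrays that stood apart left out it was 0.35 (SE 0.084), at an unadjusted p of 0.0066 and an adjusted p of 0.389 in limma.

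The call for Tnfsf11 turned on which genes were tested and how the variance was modelled. It passed the adjusted threshold when the dimmer genes, those below the median signal, were dropped, at an adjusted p of 0.0402 in limma, where 0.271% of genes passed. It also passed with a robust variance trend, at an adjusted p of 0.0478 in limma, where 0.155% of genes passed. With a plain trend it was at an adjusted p of 0.0528, and over all other alternatives its adjusted p lay between 0.0998 and 0.389 in limma. In bulk tissue, a change in the number of cells that make a transcript and a change in the RNA per cell cannot be told apart. T cells are a known source of RANKL. Of 8 T cell markers, 3 were higher at an unadjusted p under 0.05 in limma, where 11.9% of all genes were. In each of the lowest 4 deciles of signal this share was 13.5% to 23.2%. Signals of 7 of the 8 markers lay in the range of silent genes. Their summed signals are given with the blood markers. The part of T cells in the Tnfsf11 value was not tested.

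The receptors that bind RANKL did not differ in the same way. Tnfrsf11a, the signalling receptor RANK, was at 7.26, 7.25 and 7.34 in saline and 7.20, 7.34 and 7.29 in SAHA. The groups overlapped fully, with a difference of -0.0054 (SE 0.065, 95% interval -0.15 to 0.14). Tnfrsf11b, the secreted decoy osteoprotegerin that sequesters RANKL, was at 6.46, 6.61 and 6.62 in saline and 6.86, 6.39 and 6.56 in SAHA. SAHA replicate 1 was the highest array and SAHA replicate 2 the lowest, and the difference was 0.040 (SE 0.12), with an interval of -0.23 to 0.31.

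**Figure D3:**
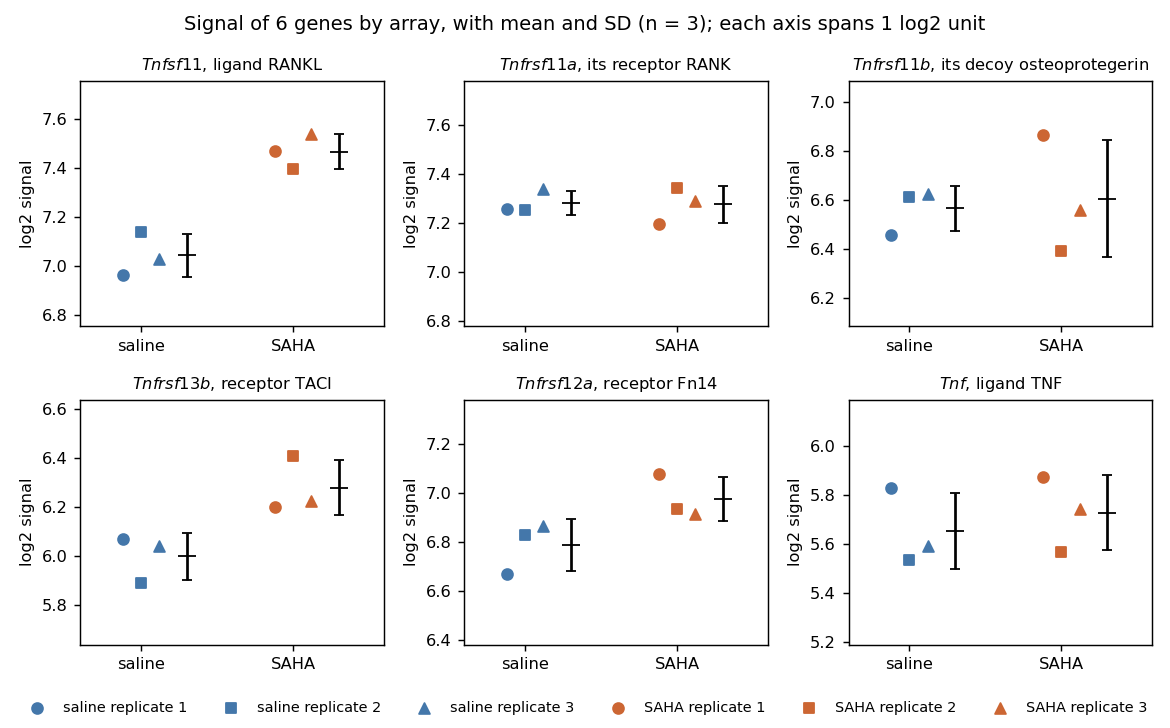
Log2 signal (vertical axis, spanning 1 log2 unit in each panel) of Tnfsf11, Tnfrsf11a, Tnfrsf11b, Tnfrsf13b, Tnfrsf12a and Tnf in saline (blue) and SAHA (orange) arrays, with the mean and SD of each group (n = 3) as a bar beside the points. The saline and SAHA points do not overlap for Tnfsf11, Tnfrsf13b and Tnfrsf12a and overlap for Tnfrsf11a, Tnfrsf11b and Tnf.

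The promoter windows of the leading genes are shown beside that of RANK, to set the ligand that was higher against the receptor that was not. RefSeq sequence of build GRCm38.p6 held such a window for 24 of the 30 members. Each is the 250 bases before the start, written 5′ to 3′ on the strand of the gene, and the capitals mark matches on either strand to GGGNNNNNCC, a loose form of the site bound by NF-kappaB; where capitals run for more than 10 bases, matches overlap. The windows lie at chr14:78308044-78308293 on the minus strand for Tnfsf11, chr1:105780473-105780722 on the plus strand for Tnfrsf11a, chr11:61126505-61126754 on the plus strand for Tnfrsf13b and chr17:23677450-23677699 on the minus strand for Tnfrsf12a.
Tnfsf11: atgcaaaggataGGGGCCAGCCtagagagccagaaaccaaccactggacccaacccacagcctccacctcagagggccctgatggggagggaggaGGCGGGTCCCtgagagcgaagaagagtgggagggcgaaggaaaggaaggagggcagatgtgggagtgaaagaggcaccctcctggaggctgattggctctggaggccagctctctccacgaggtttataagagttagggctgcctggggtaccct
Tnfrsf11a: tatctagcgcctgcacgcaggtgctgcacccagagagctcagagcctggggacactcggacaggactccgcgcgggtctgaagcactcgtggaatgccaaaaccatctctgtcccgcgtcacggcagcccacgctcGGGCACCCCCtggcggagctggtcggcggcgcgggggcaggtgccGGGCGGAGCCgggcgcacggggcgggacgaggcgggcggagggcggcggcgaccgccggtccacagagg
Tnfrsf13b: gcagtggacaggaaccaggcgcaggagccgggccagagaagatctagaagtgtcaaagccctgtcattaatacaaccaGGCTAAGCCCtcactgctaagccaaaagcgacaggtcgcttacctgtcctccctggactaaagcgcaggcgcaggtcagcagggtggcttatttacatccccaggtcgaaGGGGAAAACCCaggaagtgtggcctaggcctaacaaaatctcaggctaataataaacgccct
Tnfrsf12a: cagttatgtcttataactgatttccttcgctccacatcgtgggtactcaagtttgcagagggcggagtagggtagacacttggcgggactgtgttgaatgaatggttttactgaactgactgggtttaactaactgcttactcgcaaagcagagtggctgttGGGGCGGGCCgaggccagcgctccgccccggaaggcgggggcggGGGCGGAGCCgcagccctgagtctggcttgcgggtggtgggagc

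The Tnfsf11 window held 2 matches to GGGNNNNNCC, the Tnfrsf11a window 3, the Tnfrsf13b window 4 and the Tnfrsf12a window 2, counting a stretch that matches on both strands once per strand. The pattern is common: 45.8% of 32851 promoter windows held it, and 15 of the 28 windows of the members. Counted by gene, 14 of the 24 members (58.3%) held it in any of their windows, a share not comparable with that of windows. The GC box GGGCGG, which some of these matches overlap, was found 4 times for Tnfrsf11a, 5 times for Tnfrsf12a and 0 times for Tnfsf11 and Tnfrsf13b, and in 32.7% of all windows. A TATA-like TATAAA, searched on both strands, lay in the Tnfsf11 window at -32 from the start, on the opposite strand, and in 12.4% of all windows. The strand of the gene reads TTTATAAG there, which holds TATAAG, so the match does not settle the orientation of such an element. The AP-1 letters TGANTCA were in 0 of the 4 windows and in 6.75% of all. The CG pairs that DNA methylation acts on numbered 4 in the Tnfsf11 window, 31 in that of Tnfrsf11a, 8 in that of Tnfrsf13b and 15 in that of Tnfrsf12a, where the median over all windows was 6. These are matches of letters, and none of them was set against binding or acetylation data.

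Tnf itself, the founding cytokine of the family, was at 5.83, 5.53 and 5.59 in saline and 5.87, 5.57 and 5.74 in SAHA. The groups overlapped, the difference was 0.075 (SE 0.10), and its sign turned after quantile normalization, at -0.026. Tnfrsf1a, the death-domain receptor TNFR1 found on most cells, was at 6.36, 6.48 and 6.43 in saline and 6.46, 6.55 and 6.60 in SAHA. Only the lowest SAHA array lay within the saline range, and the difference was 0.12 (SE 0.065), which was 0.034 after quantile normalization. Tnfrsf1b, the receptor TNFR2 of microglia and lymphocytes, was at 6.17, 6.37 and 6.35 in saline and 6.36, 6.41 and 6.39 in SAHA. Saline replicate 1 was the lowest array for both receptors, and Tnfrsf1b differed by 0.092 (SE 0.070), or 0.0019 after quantile normalization. The unadjusted p in limma was 0.494 for Tnf, 0.108 for Tnfrsf1a and 0.227 for Tnfrsf1b. The interval for Tnf ran from -0.17 to 0.32, so shifts of that size in either direction were not resolved.

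The ligand BAFF and its receptors, which sustain B cells, differed in sign on the deposited values. Tnfsf13b, the gene of BAFF, was at 6.80, 6.48 and 6.69 in saline and 6.70, 6.50 and 6.44 in SAHA, a difference of -0.11 (SE 0.10) that was 0.015 without saline replicate 1 and SAHA replicate 3. The 95% interval of Tnfsf13b ran from -0.35 to 0.12, so its sign is not settled. Of all 20 receptor genes, 18 were above 0 on these values. Tnfrsf13b, the receptor TACI, was at 6.07, 5.89 and 6.04 in saline and 6.20, 6.41 and 6.23 in SAHA. All SAHA arrays lay above all saline arrays, with a difference of 0.28 (SE 0.081, 95% interval 0.092 to 0.47) and an unadjusted p of 0.00886 in limma. Its signal lies below the 6.34 limit of silent genes, and after quantile normalization the difference was 0.18 (SE 0.090), at an unadjusted p of 0.0773 in limma with overlapping groups. Its adjusted p was 0.171 in limma, and from 0.155 to 0.43 over the alternatives.

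Tnfrsf13c, the receptor BAFF-R, was at 7.21, 7.46 and 7.41 in saline and 7.53, 7.46 and 7.67 in SAHA. SAHA replicate 2 lay within the saline range and the others above it, and the difference was 0.19 (SE 0.088), or 0.054 without saline replicate 1 and SAHA replicate 3. Tnfrsf17, the plasma cell receptor BCMA, differed by 0.12 (SE 0.062), with SAHA arrays at 6.07 to 6.20 above saline arrays at 5.97 to 6.02. After quantile normalization this was 0.029. Markers of B cells were measured for 5 of 6 genes, 0 of them at an unadjusted p under 0.05 in limma, and 4 of the 5 had signals in the range of silent genes. Their summed linear signal was 259 to 289 in saline and 284 to 308 in SAHA. None was at 0, since the deposited values give every probe set a positive signal, and the part of B cells in the receptor values was not tested.

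Tnfrsf12a encodes Fn14, the receptor for the cytokine TWEAK, which is induced by injury and growth factors. It was at 6.67, 6.83 and 6.87 in saline and 7.08, 6.94 and 6.92 in SAHA. The groups did not overlap, but the lowest SAHA array lay just above the highest saline array. The difference was 0.19 (SE 0.078, 95% interval 0.0083 to 0.37), with an unadjusted p of 0.0424 and an adjusted p of 0.27 in limma. It was 0.14 (SE 0.073) after quantile normalization, and 0.13 without saline replicate 1, at an unadjusted p of 0.0869 and 0.14 in limma. Leaving out saline replicate 2, SAHA replicate 1 or SAHA replicate 2 also took it above 0.05, to an unadjusted p of 0.0587, 0.137 and 0.0552 in limma. Its ligand TWEAK is Tnfsf12, which shares its probe set with other symbols.

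Ligands and receptors that costimulate T cells showed small and mixed differences. Tnfsf14, the ligand LIGHT, differed by 0.22 (SE 0.097), with SAHA arrays at 4.93 to 5.28 and saline arrays at 4.78 to 4.96, and its receptor Tnfrsf14, HVEM, by 0.089 (SE 0.070). Without saline replicate 1 and SAHA replicate 3 the Tnfsf14 difference was 0.345 (SE 0.10), at an unadjusted p of 0.0168 and an adjusted p of 0.401 in limma. Quantile normalization lowered it to 0.11, cyclic loess to 0.125, and leaving out SAHA replicate 2 also to 0.125. Tnfsf8, the ligand of CD30, differed by 0.17 (SE 0.11) and Tnfrsf8, CD30 itself, by 0.13 (SE 0.068). Tnfsf9, the ligand of 4-1BB, went the other way at -0.18 (SE 0.17), with SAHA replicate 1 at 5.40 and the other two SAHA arrays at 4.81 and 4.75. The saline arrays lay between these, at 5.04 to 5.37. Its value moved widely with single arrays. It was -0.39 (SE 0.11) without SAHA replicate 1, at an unadjusted p of 0.0101 in limma, but -0.065 without SAHA replicate 3, -0.081 without saline replicate 3 and -0.095 without SAHA replicate 2. Tnfrsf9, 4-1BB, differed by 0.081 (SE 0.094). Of the 10 ligand genes, 7 had signals in the range of silent genes, namely Tnf, Tnfsf4, Tnfsf8, Tnfsf9, Tnfsf10, Tnfsf14 and Tnfsf18. Of the 20 receptor genes, 7 did too, namely Tnfrsf10b, Tnfrsf13b, Tnfrsf14, Tnfrsf17, Tnfrsf22, Tnfrsf23 and Tnfrsf26.

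The OX40 pair lay near 0, and the GITR pair was higher by up to 0.13. Tnfsf4, the ligand of OX40, differed by 0.030 (SE 0.060) and Tnfrsf4, OX40, by 0.024 (SE 0.084), and both had negative values after quantile normalization, at -0.076 and -0.032. Tnfsf18, the ligand of GITR, differed by 0.086 (SE 0.060). Tnfrsf18, GITR, differed by 0.13 (SE 0.074), with all SAHA arrays at 7.14 just above a highest saline array of 7.11. Tnfsf15, the endothelial ligand TL1A, was at 6.42, 6.41 and 6.45 in saline and 6.59, 6.33 and 6.57 in SAHA. Its SAHA arrays enclosed the saline range, with a difference of 0.071 (SE 0.079). Its receptor Tnfrsf25, the death-domain receptor DR3, differed by 0.16 (SE 0.072), at 6.70 to 6.91 in SAHA against 6.59 to 6.70 in saline, where the groups only just separated.

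Lymphocyte and blood markers were read beside these genes. Of 8 T cell markers measured, 3 were higher and 0 lower at an unadjusted p under 0.05 in limma, and 7 of the 8 had signals in the range of silent genes. At that limit 11.9% of all genes were higher, and 13.5% to 23.2% in each of the lowest 4 deciles of signal, where most of these and the blood markers lie. Their summed linear signal was 452 to 478 in saline and 477 to 528 in SAHA, with none at 0. Neutrophil and red cell markers were higher for 5 of 7 at that limit, with sums of 376 to 412 in saline and 432 to 476 in SAHA. Microglial markers, from the cells that express Tnf and Tnfrsf1b in cortex, had 1 of 11 higher and 1 lower (18.2%, near the 17.4% of all genes), with sums of 1981 to 2017 in saline and 1919 to 2009 in SAHA. The part of these cells in the values of the members was not tested.

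TRAIL and its death receptor both had values below 0, within their spread. Tnfsf10, the interferon-inducible ligand TRAIL, was at 5.62, 6.21 and 6.51 in saline and 6.08, 6.32 and 5.70 in SAHA. Its spread within groups, a pooled SD of 0.39, exceeded that of 99.7% of all genes, and the difference of -0.083 (SE 0.23) is far inside it. The difference was 0.12 without saline replicate 3, 0.082 without SAHA replicate 3 and -0.33 without saline replicate 1. Tnfrsf10b, the TRAIL receptor with a death domain, was at 5.83, 5.70 and 5.90 in saline and 5.68, 5.66 and 5.81 in SAHA. Its difference was -0.090 (SE 0.076). After quantile normalization it was -0.19 (SE 0.076), at an unadjusted p of 0.0381 and an adjusted p of 0.349 in limma. This made it the 1 member lower under that limit among 3 members in all, where 13.2% of all genes reached it.

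Tnfrsf21, the neuronal death receptor DR6, was at 9.18, 9.25 and 9.27 in saline and 9.05, 9.37 and 9.28 in SAHA. SAHA replicate 1 was the lowest array and SAHA replicate 2 the highest, and the difference was 0.00042 (SE 0.087, 95% interval -0.20 to 0.20). Genes in its decile of signal had a median of -0.059. Tnfrsf19, the receptor TROY of neural progenitors and glia, was at 7.25, 7.26 and 7.35 in saline and 7.33, 7.32 and 7.24 in SAHA, a difference of 0.015 (SE 0.061). Both receptors were thus held to within 0.20 in either direction by their intervals, relative to the scaling of the deposited values.

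Tnfrsf22, Tnfrsf23 and Tnfrsf26 are related receptors, the first pair being decoys for TRAIL, and follow each other on chromosome 7 as neighbouring protein-coding genes. They differed by 0.11 (SE 0.11), 0.024 (SE 0.071) and 0.019 (SE 0.11). The Tnfrsf22 value came from SAHA replicate 1, at 6.56, since the other SAHA arrays were at 6.13 and 6.17 and saline at 6.14 to 6.21, and without that array it was -0.022. These genes are close relatives, and cross-hybridisation between their probe sets was not tested. Other neighbouring members were Tnfsf4 with Tnfsf18 on chromosome 1, and Tnfsf15 with Tnfsf8, Tnfrsf1b with Tnfrsf8 and Tnfrsf4 with Tnfrsf18 on chromosome 4, which holds 9 of the 30 genes. In each of these pairs both differences were above 0 on the deposited values, and after quantile normalization they were below 0 for Tnfsf4, Tnfsf18, Tnfsf15 and Tnfrsf4.

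**Figure D4:**
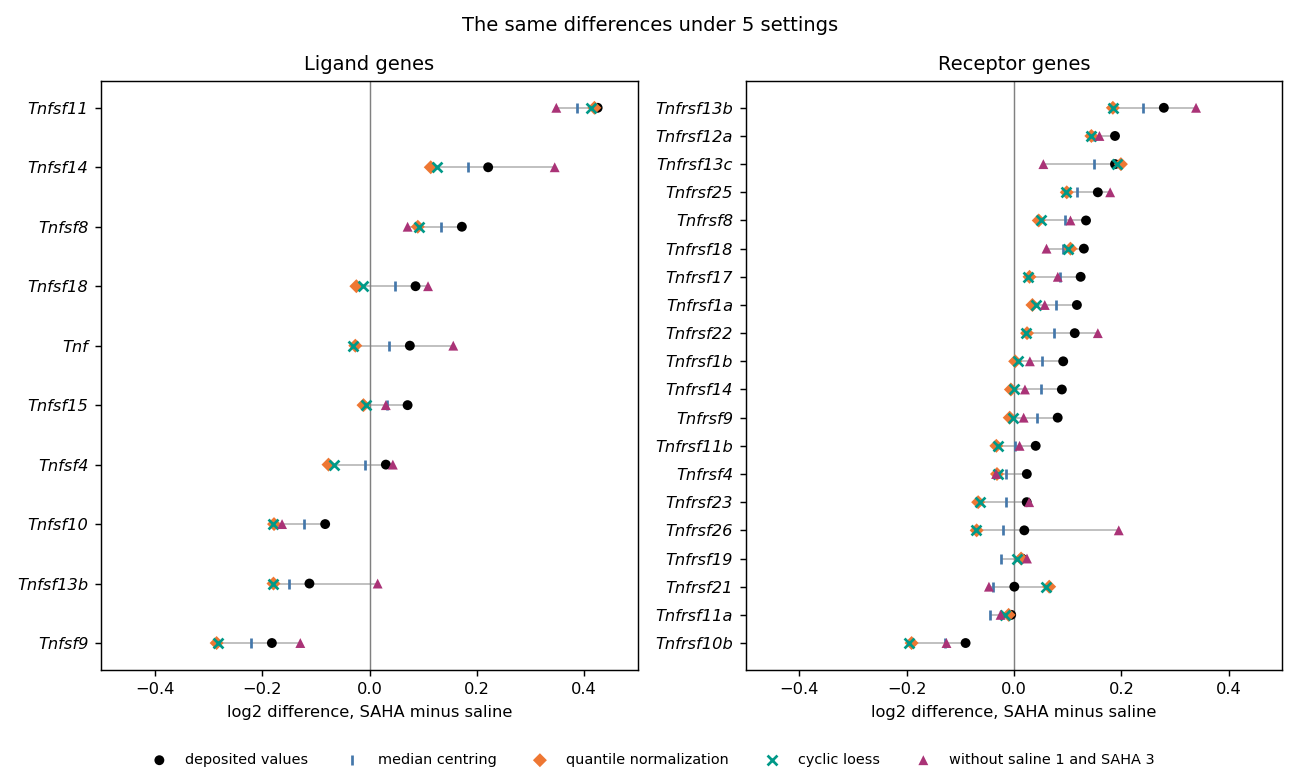
Log2 difference (SAHA minus saline, horizontal axis) of each of the 30 genes on the deposited values (black circles), after median centring, after quantile or cyclic loess normalization, and without saline replicate 1 and SAHA replicate 3 (triangles). Tnfsf11 stays between 0.35 and 0.425, while Tnf, Tnfsf4, Tnfsf18 and several receptors cross 0.

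Leaving out saline replicate 1 and SAHA replicate 3, 3 members were at an unadjusted p under 0.05 in limma (Tnfsf11, Tnfsf14 and Tnfrsf13b), all higher, where 10.4% of all genes reached that limit, and 24 of the 30 were above 0. The receptor median was then 0.042 and the ligand median 0.057.

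Superfamily genes with other names were taken as a list of their own. Of 6 ligand genes, 4 were higher and 0 lower at an unadjusted p under 0.05 in limma, with a median difference of 0.23. Cd70, the ligand of CD27, was at 5.25, 5.38 and 5.22 in saline and 5.58, 5.64 and 5.64 in SAHA, with a wide gap between the groups and a difference of 0.34 (SE 0.064, adjusted p of 0.12 in limma). Lta, lymphotoxin alpha, differed by 0.31 (SE 0.11) and Cd40lg, the CD40 ligand of activated T cells, by 0.27 (SE 0.099), both with overlapping groups. The fourth, named after its value was seen, was Eda, the ectodysplasin of hair and tooth development, at 0.18 (SE 0.077). All 6 genes had signals in the range of silent genes, where 13.5% to 23.2% of all genes in the lowest 4 deciles were higher at that limit. After quantile normalization 1 of the 6 stayed under it, Cd70 at 0.23 (SE 0.066), and without both arrays that stood apart this was again Cd70, at 0.31 (SE 0.088). Of 8 receptor genes, 1 was higher and 0 lower (12.5%, against 17.4% of all genes): Eda2r, at 0.17 (SE 0.058), which was 0.077 after quantile normalization. The signal of Eda2r also lies in the range of silent genes. The median of these receptors was 0.022, and Cd40, Fas, Ltbr and Ngfr had unadjusted p from 0.0966 to 0.795 in limma.

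Adaptors, NF-kappaB factors and their inhibitors were counted next. Of 25 adaptors and proximal enzymes measured, 0 were higher and 1 lower at an unadjusted p under 0.05 in limma, with a median of 0.0063. This is 4% of the list, against 17.4% of all genes. That gene was Birc2, the ubiquitin ligase cIAP1 bound to TRAF2, at 9.10, 8.88 and 8.78 in saline and 8.66, 8.80 and 8.55 in SAHA. SAHA replicate 2 lay within the saline range, the difference was -0.25 (SE 0.10), and without both arrays that stood apart the value was -0.098. Genes in the decile of signal of Birc2 had a median of -0.059, and 9.78% of them were lower at that limit. Of 8 NF-kappaB factors and inhibitors, 1 was higher and 0 lower (12.5%): Nfkbie, the inhibitor IkappaB epsilon, at 0.18 (SE 0.076) and at 0.085 after quantile normalization. The signal of Nfkbie lies in the range of silent genes. Nfkbia and Tnfaip3, inhibitors that NF-kappaB itself induces, differed by 0.076 (SE 0.072) and 0.10 (SE 0.059).

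Genes that TNF induces had 4 of 22 higher and 1 lower at an unadjusted p under 0.05 in limma, or 22.7% against 17.4% of all genes. Their median was 0.11, and 0.026 after quantile normalization. Signals of 10 of the 22 lay in the range of silent genes. In each of the lowest 4 deciles 13.5% to 23.2% of all genes were higher at that limit. Tnfaip3, Birc3 and Nfkbia are counted here and in the lists above. Mmp9, a matrix metalloprotease, was at 5.51, 5.21 and 5.61 in saline and 5.87, 5.91 and 5.86 in SAHA. All SAHA arrays were above all saline arrays, by a difference of 0.44 (SE 0.10, adjusted p of 0.129 in limma). Cxcl1, a neutrophil chemokine, differed by 0.35 (SE 0.098) and Icam1, an endothelial adhesion molecule, by 0.33 (SE 0.13). After quantile normalization these were 0.34, 0.26 and 0.33 in the same order. Without saline replicate 1 and SAHA replicate 3 they were 0.48, 0.22 and 0.20. Tnfaip8, an inhibitor of apoptosis, was lower, at -0.22 (SE 0.078). The signals of Mmp9 and Cxcl1 lie below the limit of silent genes, and Mmp9 is also a neutrophil gene, like the markers whose sums are given above.

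Shedding of TNF is carried out by Adam17 with its partner Rhbdf2. Adam17 differed by -0.073 (SE 0.054) and Rhbdf2 by 0.18 (SE 0.062), which was 0.090 after quantile normalization. The signal of Rhbdf2 lies in the range of silent genes. Adam10, a related sheddase with many neuronal substrates, was at 9.37, 9.30 and 9.29 in saline and 9.04, 9.12 and 9.06 in SAHA. Every SAHA array lay below every saline array, at a difference of -0.24 (SE 0.058, unadjusted p of 0.00359 and adjusted p of 0.142 in limma), and at -0.17 (SE 0.051) after quantile normalization. Genes in its decile of signal had a median of -0.059, and 9.78% of them were lower at an unadjusted p under 0.05 in limma. Of the 6 genes of this list, 1 was higher and 1 lower at an unadjusted p under 0.05 in limma, where 11.9% and 5.56% of all genes were.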

How the data were processed

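RNA from 6 frontal cortex samples, 3 per group, was hybridised to Affymetrix whole-transcript arrays after NuGEN amplification, per the labels' protocols. The deposited log2 values were made by the authors with Affymetrix Expression Console and RMA, per the submitters' processing notes, which name no version. RMA normalises between arrays, but the direction of the differences still varied with signal. In the second decile 77.3% of genes were higher in SAHA, and in the tenth 17.4%. The deposited values range from 1.43 to 14.2. Depth does not apply to arrays.

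Of 35556 probe sets, 21789 pair with 1 symbol, 1621 with several and 12146 with none. Each gene was represented by its brightest single-symbol probe set. The Entrez identifiers of 19855 genes, the 30 members among them, were found in the RefSeq table of GRCm38.p6, and 0 symbols changed. Columns left unused numbered 0. lmFit and eBayes of limma 3.58.1 (R 4.3.3) were fitted over all 19938 genes, two-sided, with Benjamini-Hochberg adjustment, a threshold of 0.05, no block and no filter on dim genes. The fit was run on simulated data with independent noise for each gene and no shift that varies with signal. These data have such a shift, so that run does not bear on the calls given here.

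The members and lists were chosen with earlier results of these data known. Among the members, values of every array are printed for Tnf and its receptors, members at an unadjusted p under 0.05, the 3 of highest signal per class, the receptors of Tnfsf11 and, chosen after their values were seen, Tnfsf10 and Tnfrsf10b. From each pathway list up to 3 genes per direction under that limit were named. Values of every array are printed for Cd70, Birc2, Mmp9 and Adam10 of these, a choice made with their values known. Other genes named from the lists were chosen after their values were seen. Alternatives were other scalings, averaging of probe sets, a test of the brighter genes alone (at or above the median), variance trends, array weights, a replicate block, and arrays left out. Replicate numbers did not pair the samples.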

Additional observations from a re-analysis of the deposited data

How the results depend on the processing

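Differences below are SAHA minus saline on the log2 scale, and all tests are limma fits. With a filter that drops genes below the median signal, a variance trend or a robust trend, 27, 28 and 31 genes passed the adjusted threshold, where 0 did on all genes, and 1 member (Tnfsf11) passed with the filter and with the robust trend. The filter keeps 6 members, so it gives no value for the others. Members at an unadjusted p under 0.05 numbered 3 to 5 with 1 array left out, where 12.2% to 19.4% of all genes were. Members whose groups did not overlap numbered 7, and 4 after median centring, 3 after quantile normalization, 2 after cyclic loess, 2 with the filter, 12 without saline replicate 1 and SAHA replicate 3, and 9 to 12 with 1 array left out. The shares of all genes were 23.9%, 25.3%, 19.8%, 19.8%, 24.5%, 42.3% and 31.1% to 41.2% in the same order. The ligand median of 0.073 became -0.0255 after quantile normalization, -0.0216 after cyclic loess and 0.425 with the filter, where 1 ligand is left, and 0.0303 to 0.112 with 1 array left out. The receptor median of 0.0903 became 0.0514 after median centring, 0.0186 after quantile normalization, 0.0144 after cyclic loess, 0.0145 with the filter and 0.0419 without the 2 arrays that stood apart, and 0.0714 to 0.128 with 1 array left out.

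The sign of a member's difference turned in 51 of 456 recomputed values. After quantile normalization these were Tnf -0.0265, Tnfrsf11b -0.0331, Tnfrsf14 -0.00597, Tnfrsf23 -0.067, Tnfrsf26 -0.0698, Tnfrsf4 -0.0319, Tnfrsf9 -0.00822, Tnfsf15 -0.0113, Tnfsf18 -0.0246 and Tnfsf4 -0.0765. After cyclic loess they were, in the same order, -0.0301, -0.0294, -0.000355, -0.064, -0.0704, -0.0309, -0.00296, -0.00686, -0.0131 and -0.0665. After median centring they were Tnfrsf19 -0.0244, Tnfrsf21 -0.0385, Tnfrsf23 -0.0154, Tnfrsf26 -0.0199, Tnfrsf4 -0.0152 and Tnfsf4 -0.00846, and with array weights Tnfrsf21 -0.00853. Without saline replicate 1 and SAHA replicate 3 they were Tnfrsf21 -0.0469, Tnfrsf4 -0.0336 and Tnfsf13b 0.0151, which otherwise went down to -0.199 without saline replicate 2. With 1 array left out the ranges that cross 0 were -0.0396 to 0.0352 for Tnfrsf11a, -0.0899 to 0.146 for Tnfrsf11b, -0.0038 to 0.0481 for Tnfrsf19, -0.0671 to 0.0902 for Tnfrsf21, -0.0218 to 0.189 for Tnfrsf22, -0.00913 to 0.0753 for Tnfrsf23, -0.0621 to 0.122 for Tnfrsf26 (0.195 without both arrays that stood apart), -0.0372 to 0.101 for Tnfrsf4 and -0.328 to 0.117 for Tnfsf10. The sign held for 14 members under every alternative run. The cause was not tested.

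With a replicate block, Tnfsf11 differed by 0.425 at an adjusted p of 0.203 in limma, and 3 members (Tnfsf11, Tnfrsf13b and Tnfsf14) were at an unadjusted p under 0.05, as were 15.5% of all genes. Tnfrsf12a, at an unadjusted p of 0.0836 in limma, lost that limit and Tnfsf14 gained it. The block changed no other call. Deviations from the group means of same-numbered samples correlated at -0.105, -0.0792 and 0.015 over genes, so the numbers are not taken as pairs. Signal over background limits the 14 members in the range of silent genes, and 3 arrays per group limit all of them.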
